A study of Sus scrofa with 16 samples.

Results

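The genes described here set the choice between glucose and fat as fuel, and they form a small group whose levels are known to move with fasting and illness. They were chosen by name, as PDK4, PDK2, TXNIP, ARRDC3, ANGPTL4, CPT1A, UCP2, ACADM and PPARA, and were looked up by pig Ensembl gene identifier in a table of FPKM values (fragments per kilobase of transcript, scaled to the number of mapped fragments) from pig hippocampus. Of these 9 genes, 8 were found among 21956 gene identifiers, and TXNIP was not matched and is not analysed here. All 8 genes had an entry among the 13590 that reached a mean of 0.5 FPKM over the pigs, while PPARA also had another entry with a mean of 0.428 FPKM that did not. The choice was made with results of these pigs known, and PDK4 and ARRDC3 are on it partly for their levels in sick pigs, so the differences between disease groups are given as a description. Where a fit over all entries gives a count or a p for them, no support is drawn from it.

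When blood sugar falls, tissues that can do so burn fatty acids and ketone bodies and spare glucose. Pyruvate, the end product of glycolysis, enters the mitochondrial citric acid cycle through the pyruvate dehydrogenase complex, and the pyruvate dehydrogenase kinases switch that complex off by phosphorylation. The nuclear receptor PPARα, FOXO transcription factors and glucocorticoids turn on much of this programme in liver and muscle, whereas the brain under normal feeding runs mainly on glucose.

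The hippocampi came from preterm pigs delivered by cesarean section and fed human donor milk with parenteral nutrition, some of which developed necrotizing enterocolitis (NEC), an inflammatory bowel disease of preterm newborns, without any further insult. RNA was sequenced from the left hippocampus of 16 pigs. Of these, 6 had severe lesions of the small intestine, a group defined with or without lesions of the colon (Si-NEC). Severe lesions in the colon alone were found in 5 (Co-NEC), and 5 had no visible lesions (No NEC). The Si-NEC group held 3 females and 3 males, and each of the other groups held 2 females and 3 males. NEC arose spontaneously and was not assigned, the labels give no age or litter, and fasting was not part of the design.

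The FPKM values of a pig summed to between 544629 and 864931, with the highest sums in No NEC pig 230-15 and Si-NEC pig 223-15, and the median correlation across genes with the remaining pigs was lowest in the same 2 animals, at 0.902 and 0.933. The numbers of 6 pigs end in 14 and those of 10 pigs end in 15. What the ending means is not given in the labels, and all 6 pigs ending in 14 were male. Neuronal markers were plentiful, with a summed level of 876 to 1643 FPKM over the 2 genes found of 5 listed, and the hippocampal neuron markers summed to 7.48 to 16.3 FPKM over 2 genes found of 4. The table holds no read counts, so the depth behind each value is unknown. In whole tissue, fewer cells of a type and less RNA per cell cannot be told apart.

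PDK4, the pyruvate dehydrogenase kinase that fasting induces most strongly in muscle and heart, had the largest difference between the groups among the 8 genes. In the No NEC pigs PDK4 was 6.06, 6.50, 8.30, 9.06 and 12.3 FPKM. Its Co-NEC values were 7.95, 9.36, 10.5, 13.1 and 16.9 FPKM, and its Si-NEC values 6.10, 10.4, 15.3, 16.4, 34.7 and 35.1 FPKM. The 2 highest pigs, 224-15 and 223-15, stood at about the same level, far above the other 4 Si-NEC pigs, whereas the lowest Si-NEC pig, 547-14, stood among the No NEC pigs. In all, 4 of 6 Si-NEC values exceeded the whole No NEC range, and the groups overlapped. The group means were 19.7 ± 12.4 FPKM in Si-NEC (SD, n = 6), 11.6 ± 3.53 in Co-NEC (SD, n = 5) and 8.44 ± 2.48 in No NEC (SD, n = 5), so that the Si-NEC mean was 2.33 times and the Co-NEC mean 1.37 times the No NEC mean. On the log2(FPKM + 0.5) scale the difference was 0.97 (SE 0.41) for Si-NEC against No NEC. It was 0.43 (SE 0.23) between Co-NEC and No NEC, and 0.54 (SE 0.40) between Si-NEC and Co-NEC. The Si-NEC against No NEC value ranged from 0.76 without pig 224-15 to 1.24 without pig 547-14, and it was 0.79 without pigs 223-15 and 230-15.

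**Figure D1:**
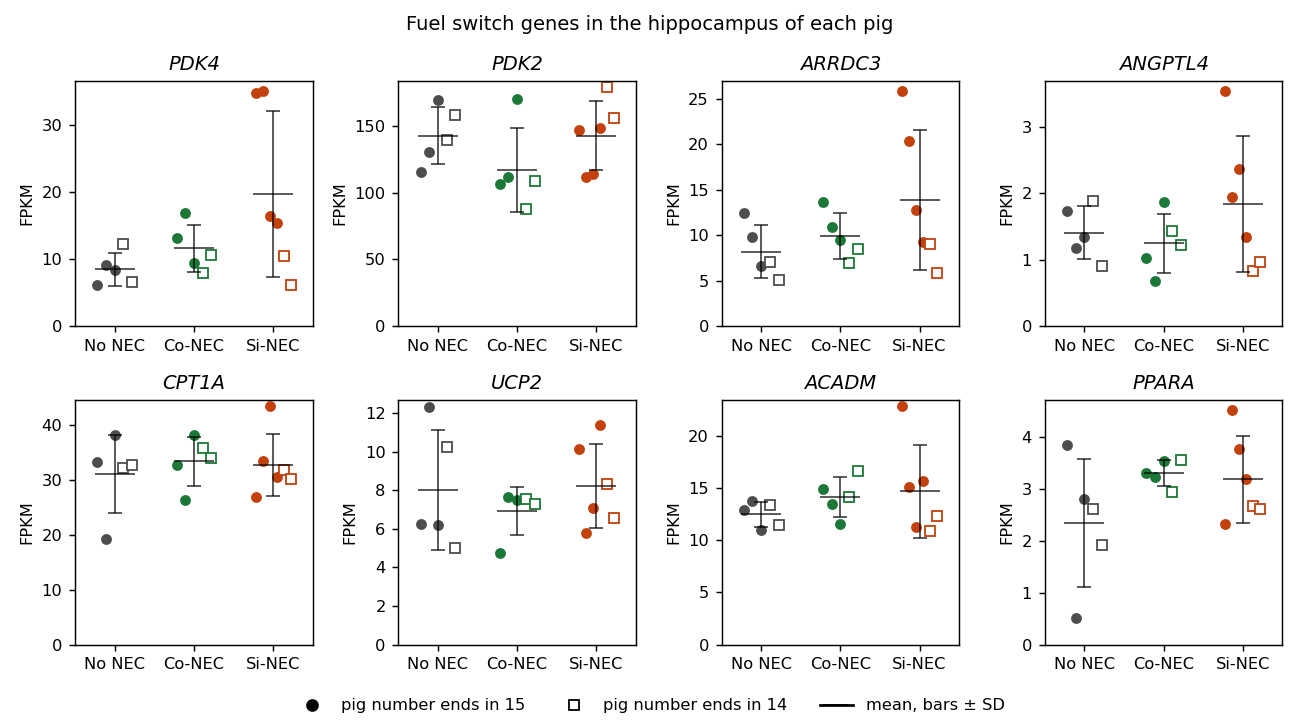
FPKM of the 8 fuel switch genes (vertical axes, from 0) in No NEC, Co-NEC and Si-NEC pigs, with 1 point for each pig, filled where the pig number ends in 15 and open where it ends in 14, and the mean ± SD as lines. PDK4 and ARRDC3 reach 35.1 and 25.9 FPKM in the highest Si-NEC pig, while every gene has overlapping groups.

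PDK2, the kinase of the same complex that is most widely expressed, was the most abundant of the 8 genes and had another order of the groups than PDK4. PDK2 was 116, 131, 139, 159 and 169 FPKM in the No NEC pigs and 112 to 179 FPKM in the Si-NEC pigs, with a median of 148. The Co-NEC pigs had 87.7, 107, 109, 111 and 171 FPKM, so 4 of 5 lay below every No NEC pig while pig 255-15 lay above them all. The mean of 117 ± 31.3 FPKM in Co-NEC (SD, n = 5) was 0.821 times the No NEC mean of 143 ± 21.5 (SD, n = 5), and the Si-NEC mean was 143 ± 25.8 (SD, n = 6). The log2 difference was -0.31 (SE 0.17) between Co-NEC and No NEC, and 0.30 (SE 0.17) between Si-NEC and Co-NEC. Without pig 255-15 these became -0.45 and 0.44. In every pig the PDK2 level per transcript length was above that of each of the other 7 genes, PDK4 included.

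ARRDC3 codes for an arrestin domain protein of the family of TXNIP, whose members curb glucose uptake and trim receptors from the cell surface. In the No NEC pigs ARRDC3 was 5.05, 6.60, 7.0, 9.76 and 12.4 FPKM, in the Co-NEC pigs 6.99, 8.43, 9.50, 10.9 and 13.7 FPKM, and in the Si-NEC pigs 5.85, 9.01, 9.23, 12.7, 20.3 and 25.9 FPKM. The pigs 223-15 and 224-15 were again highest and 547-14 again lowest in the Si-NEC group, and 3 of 6 Si-NEC values exceeded the No NEC range. The Si-NEC mean of 13.8 ± 7.72 FPKM (SD, n = 6) was 1.70 times the No NEC mean of 8.16 ± 2.91 (SD, n = 5), and the Co-NEC mean was 9.90 ± 2.55 (SD, n = 5). The log2 difference was 0.62 (SE 0.35) between Si-NEC and No NEC, 0.29 (SE 0.24) between Co-NEC and No NEC, and 0.33 (SE 0.33) between Si-NEC and Co-NEC. Without pig 223-15 the first was 0.41 and the last 0.12, and without pigs 223-15 and 230-15 the first was 0.49.

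ANGPTL4, a secreted inhibitor of lipoprotein lipase and a PPAR target, was the least abundant gene. ANGPTL4 was 0.90, 1.18, 1.34, 1.73 and 1.88 FPKM in the No NEC pigs, 0.67, 1.03, 1.21, 1.44 and 1.87 FPKM in the Co-NEC pigs, and 0.83, 0.96, 1.34, 1.94, 2.37 and 3.55 FPKM in the Si-NEC pigs. The Si-NEC pigs spread to both sides of the No NEC range, with 3 above and 1 below it, and the lowest value of all was that of Co-NEC pig 231-15. The means were 1.83 ± 1.02 FPKM in Si-NEC (SD, n = 6), 1.24 ± 0.449 in Co-NEC (SD, n = 5) and 1.41 ± 0.399 in No NEC (SD, n = 5). The log2 difference for Si-NEC against No NEC, 0.21 (SE 0.28), rested on pig 223-15, without which it was 0.02. PPARA, which codes for the receptor that senses fatty acids, was 0.50, 1.92, 2.61, 2.79 and 3.83 FPKM in the No NEC pigs and 2.94, 3.22, 3.30, 3.53 and 3.55 FPKM in the Co-NEC pigs. Its Si-NEC values were 2.33, 2.60, 2.67, 3.18, 3.77 and 4.52 FPKM. The lowest value belonged to No NEC pig 230-15, and the PPARA difference between Si-NEC and No NEC was 0.50 (SE 0.32) on the log2 scale with this pig and 0.16 without it. For Co-NEC against No NEC it was 0.58 (SE 0.33) with this pig and 0.24 without it. The other PPARA entry, too low to be tested, had means of 0.447, 0.409 and 0.427 FPKM in No NEC, Co-NEC and Si-NEC. That entry was highest in No NEC pigs 550-14 and 230-15, at 0.738 and 0.695 FPKM, the pigs lowest for the tested entry.

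CPT1A, ACADM and UCP2, which like the kinases work in or at the mitochondrion, had smaller differences between the group means than PDK4. CPT1A, which loads long-chain fatty acids for entry into mitochondria, was 19.2 to 38.3 FPKM in No NEC, 26.4 to 38.3 in Co-NEC and 26.9 to 43.4 in Si-NEC. Its means were 31.1 ± 7.11, 33.4 ± 4.44 and 32.7 ± 5.69 FPKM in that order (SD, n = 5, 5 and 6). The highest CPT1A value came from Si-NEC pig 226-15, and the 3 group means lay within 1 SD of each other. ACADM, the medium-chain acyl-CoA dehydrogenase of fatty acid oxidation, was 10.97, 11.5, 12.9, 13.4 and 13.8 FPKM in the No NEC pigs and 11.6, 13.5, 14.2, 15.0 and 16.7 FPKM in the Co-NEC pigs. In the Si-NEC pigs ACADM was 10.95, 11.3, 12.4, 15.1, 15.7 and 22.9 FPKM. In either NEC group, 3 values exceeded the No NEC range. The ACADM log2 difference was 0.19 (SE 0.18) for Si-NEC and 0.17 (SE 0.12) for Co-NEC, each against the same No NEC pigs, and the first fell to 0.05 without pig 223-15. UCP2, an inner membrane carrier that moves 4-carbon metabolites and is named for uncoupling, was 5.00 to 12.3 FPKM in No NEC, 4.74 to 7.63 in Co-NEC and 5.79 to 11.4 in Si-NEC. The UCP2 means were 8.02 ± 3.13, 6.94 ± 1.24 and 8.22 ± 2.19 FPKM (SD, n = 5, 5 and 6), and its differences between groups were at most 0.21 on the log2 scale.

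**Figure D2:**
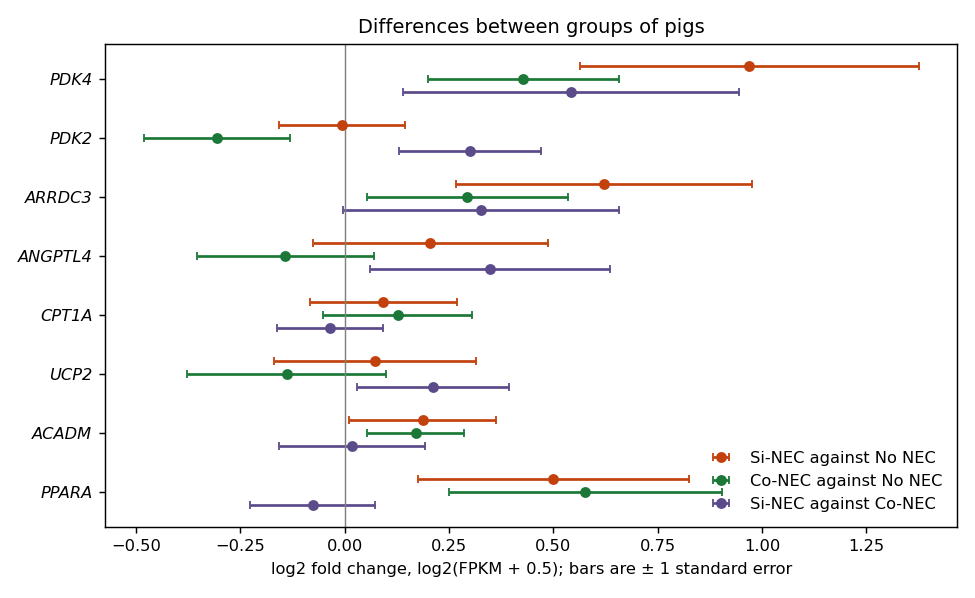
Difference in mean log2(FPKM + 0.5) for each of the 8 genes (horizontal axis, log2 fold change) in 3 comparisons of groups, with bars of ± 1 SE. The PDK4 point for Si-NEC against No NEC lies at 0.97, farthest from 0, and PDK2 is the 1 gene whose point for Co-NEC against No NEC, at -0.31, lies below 0 by more than its SE.

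The study used a q value under 0.2 from another test, Cuffdiff. By it the paper listed PDK4, ARRDC3 and TXNIP as differing between Si-NEC and No NEC. Its qPCR, in a larger set of pigs, found PDK4 and TXNIP higher in Si-NEC. Here limma was fitted over all 13590 entries, with the same 0.2 as the threshold for a Benjamini-Hochberg adjusted p. For Si-NEC against No NEC, 0 of 8 fuel switch genes passed in limma, beside 0.00736% of all entries. The count was also 0 of 8 for Co-NEC against No NEC, beside 0.00736% of entries, and 0 of 8 for Si-NEC against Co-NEC, beside 0.0147%. By range, the groups did not overlap for 0 of 8 genes in each comparison, beside 0.155%, 0.464% and 0.545% of entries in the same order. Before adjustment, 1 of the 8, PDK4, had p under 0.05 for Si-NEC against No NEC, beside 2.61% of entries, and 0 of 8 in the other comparisons, beside 3.44% and 5.64%. In Si-NEC against No NEC, 7 of 8 genes had a positive difference, beside 53.8% of entries, with a median of 0.20 against 0.02 over all entries. Between Co-NEC and No NEC it was 5 of 8, beside 52% of entries, with a median of 0.15. Between Si-NEC and Co-NEC it was 6 of 8, beside 50.1%, with a median of 0.26. The comparisons share groups and so are not independent, and since the genes were chosen with these contrasts known, nothing is read from these shares.

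By pig, the same few animals were high for several of the genes. Pig 223-15 had the highest value for 3 of the 8 genes (ARRDC3, ANGPTL4 and ACADM) and pig 224-15 for 2 (PDK4 and PPARA). Ranked from 1 for the highest of 16 pigs, the median rank over the 8 genes was 3 for pig 223-15, 3.5 for pig 224-15 and 4 for pig 226-15, all of the Si-NEC group. The Si-NEC pig 547-14 had a median rank of 13, close to the 14 of No NEC pig 550-14. The values of pig 230-15 went both ways, since it was highest for UCP2 and lowest for CPT1A and PPARA.

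**Figure D3:**
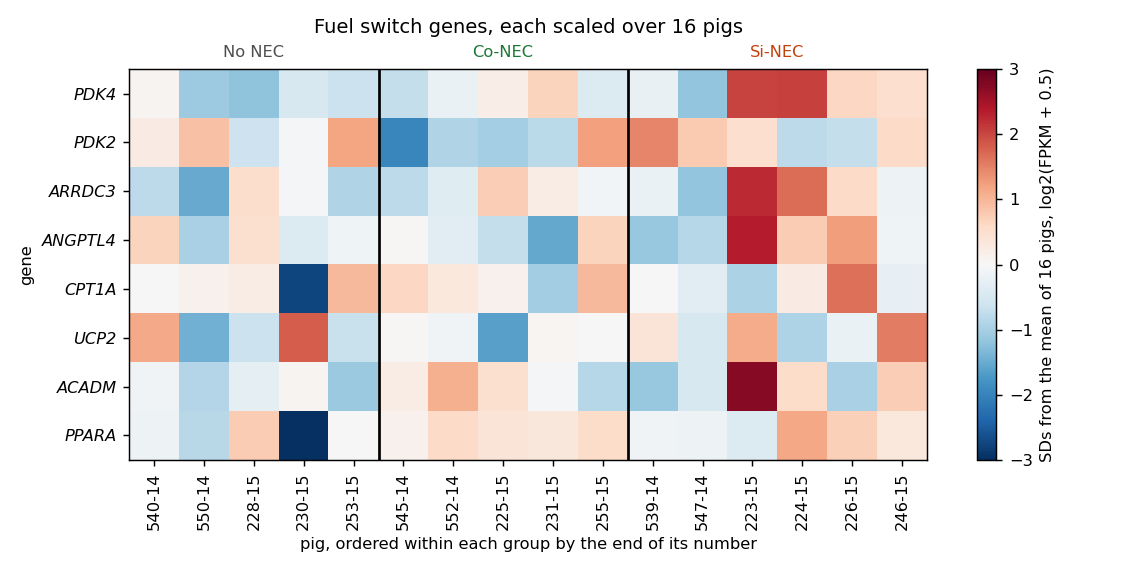
Level of each fuel switch gene (vertical axis) in each of 16 pigs (horizontal axis), as SDs of log2(FPKM + 0.5) from the gene's mean over all pigs, with the colour scale ending at 3 SDs either way and lines between the groups. The columns of Si-NEC pigs 223-15 and 224-15 are mostly red, with a median rank of 3 and 3.5, while 547-14 is mostly blue, with a median rank of 13.

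As a description, the PDK4 difference between Si-NEC and No NEC was larger among the pigs whose numbers end in 15. PDK4 is on the list partly for its levels in sick pigs, and splits by ending or sex divide that same contrast. The interaction fits given here therefore cannot decide whether the PDK4 effect depends on ending or sex, and nothing is read from them. Among pigs ending in 15, the 4 Si-NEC pigs had 15.3 FPKM or more of PDK4 and the 3 No NEC pigs 9.06 or less, with a log2 difference of 1.55. Among pigs ending in 14, the Si-NEC pigs had 6.10 and 10.4 FPKM and the No NEC pigs 6.50 and 12.3, with a log2 difference of -0.16 (n = 2 and 2). ARRDC3 differed by 0.74 within the first set and 0.27 within the second, ANGPTL4 by 0.50 and -0.39, and ACADM by 0.32 and -0.08. Fitted as an interaction in limma, which was added after the data were seen, the PDK4 effect differed by 1.71 (SE 0.60) on the log2 scale between the endings, with an adjusted p of 1.0 over all entries. With the ending as a term in place of a split, the PDK4 difference for Si-NEC against No NEC was 0.92 (SE 0.37). By sex, PDK4 differed by 1.83 among females (3 Si-NEC and 2 No NEC) and by 0.17 among males (3 and 3), and the difference between these effects had an adjusted p of 0.439 in limma. All 7 females and 3 of the 9 males have numbers ending in 15, so sex and ending overlap in part.

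Sex was not used to choose the genes, and it was fitted with limma on all 16 pigs with group as a term. The 2 pigs highest for PDK4 and ARRDC3, 223-15 and 224-15, are Si-NEC females. These genes are on the list partly for their levels in sick pigs, so their fitted sex differences reuse such values. A group term does not remove this, and no support is drawn from the fit for these genes. All 8 genes had a higher fitted log2 level in females than in males, beside 49.2% of all entries, and 0 of 8 passed the adjusted threshold, beside 0.0515% of entries, or 0.0368% at the stricter 0.05. The differences of CPT1A and UCP2 were only 0.01 (SE 0.14) and 0.03 (SE 0.19). With a pig left out, the sign changed in 5 fits each for CPT1A and UCP2, and in 1 for PDK2. Under 10 processing alternatives it changed in 2 for CPT1A, and in 1 each for ARRDC3 and ANGPTL4. The count at an unadjusted p under 0.05 was also 0 of 8, beside 3.25%. PDK4 was 6.06 to 35.1 FPKM in the 7 females, with a median of 15.3, and 6.10 to 16.4 FPKM in the 9 males, with a median of 10.4. ARRDC3 was 6.60 to 25.9 FPKM in females, with a median of 10.9, and 5.05 to 13.7 FPKM in males, with a median of 8.43. The sexes overlapped for either gene, and the fitted difference was 0.50 for PDK4 (SE 0.29, limma adjusted p = 1.0) and 0.50 for ARRDC3 (SE 0.25, limma adjusted p = 1.0). Among pigs ending in 15 alone, the difference between the sexes was 0.12 for PDK4 and -0.02 for ARRDC3. The number endings were compared in the same way, after the data were seen. Pigs 223-15 and 224-15 also end in 15, so the same limit holds for PDK4 and ARRDC3. In that fit 0 of 8 genes passed, beside 0.0221% of entries. That share is 3 entries, and it became 0 or 1 when any pig was left out and 0 with a minimum mean of 1 FPKM. Of the 8, 6 were higher in pigs ending in 15, beside 53.9% of entries, and 2 had an unadjusted p under 0.05, beside 5.11%. ARRDC3 was 5.05 to 9.01 FPKM in the 6 pigs ending in 14 and 6.60 to 25.9 FPKM in the 10 ending in 15, a log2 difference of 0.74 (SE 0.21). This was the strongest of the 8, with an unadjusted p of 0.00279 and an adjusted p of 0.855 in limma, and PDK4 followed at 0.62 (SE 0.28, limma adjusted p = 0.915). With limma array weights, which give less weight to noisier pigs, both passed the threshold, at adjusted p of 0.0562 for ARRDC3 and 0.190 for PDK4, as did 940 of the 13590 entries.

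To describe which genes varied together within the groups, each group's mean was removed and the 28 pairs of genes were correlated over 16 pigs. Removing a mean keeps the spread within a group, so the Si-NEC pigs high for both PDK4 and ARRDC3 still weigh on that pair. Both genes are on the list partly for their levels in sick pigs, so no support is drawn from the p of this pair. Of the 28, 0 passed an adjusted permutation p of 0.05 and 3 had an unadjusted p under 0.05. The pair with the smallest p was PDK4 and ARRDC3, with Pearson's r of 0.769 (permutation p = 0.00696, adjusted p = 0.195) and Spearman's rho of 0.732 (permutation p = 0.00664, adjusted p = 0.122). Without pigs 223-15 and 224-15, r was 0.486 (permutation p = 0.111), so much of it rested on them. CPT1A and PPARA had r of 0.775 (permutation p = 0.0148, adjusted p = 0.207) and rho of 0.679 (permutation p = 0.00868, adjusted p = 0.122), and without pigs 226-15 and 230-15 r was 0.338 (permutation p = 0.171). The remaining pair, CPT1A and ACADM, went opposite ways, with r of -0.48 (permutation p = 0.0414, adjusted p = 0.320) and rho of -0.46 (permutation p = 0.0787, adjusted p = 0.378). Without pigs 226-15 and 230-15 its r was -0.42 (permutation p = 0.1225). PDK4 and PDK2, kinases of the same complex, had r of -0.28 (permutation p = 0.329, adjusted p = 0.585) and rho of -0.28 (permutation p = 0.330, adjusted p = 0.599).

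**Figure D4:**
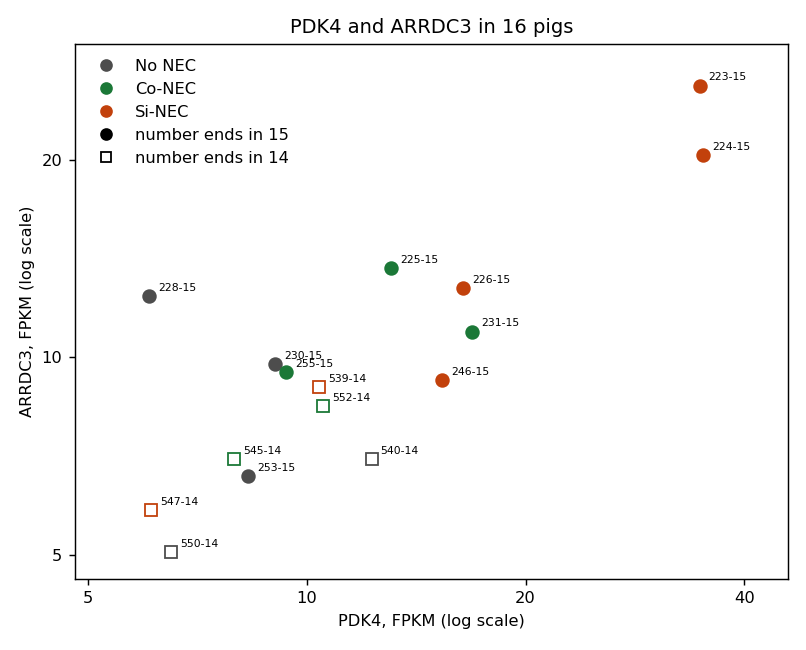
PDK4 (horizontal axis) against ARRDC3 (vertical axis) in FPKM on log scales, 1 point for each of 16 pigs, coloured by group, filled where the pig number ends in 15 and open where it ends in 14. Pigs 223-15 and 224-15 lie alone at the upper right, and Si-NEC pig 547-14 lies at the lower left beside No NEC pig 550-14.

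Among 9067 other named entries, the genes most like PDK4 over the 16 pigs by Pearson's r of log2 values were FBXO8 (0.887), PITPNC1 (0.881), MARCHF10 (0.868), FAXDC2 (0.861) and EED (0.859). With group means removed they were ZNF782 (0.904), HSPB8 (0.883), GJA1 (0.866), EED (0.865) and ITGA1 (0.860). For ARRDC3, the chaperone gene HSP90B1 and P4HA1, a collagen prolyl hydroxylase subunit, were among the 5 most alike either way, with r of 0.950 and 0.946 over all pigs and of 0.949 and 0.939 with group means removed. HSP90B1 was 59.0 to 122 FPKM in the No NEC pigs and reached 169 and 149 FPKM in pigs 223-15 and 224-15. These likenesses describe 16 pigs and share the same 2 high animals.

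By level over all pigs, PDK2 (mean 135 FPKM) came first, then CPT1A (32.4), ACADM (13.9), PDK4 (13.6), ARRDC3 (10.8), UCP2 (7.76), PPARA (2.95) and ANGPTL4 (1.52). FPKM is per transcript length, so these levels can be set side by side. Of neighbours in this order, PDK2 and CPT1A, and UCP2 and PPARA, had ranges that did not overlap. CPT1A was above ACADM in 16 of 16 pigs although their ranges overlapped, whereas ACADM was above PDK4, and PDK4 above ARRDC3, in 12 of 16 pigs each, and ARRDC3 above UCP2 in 11. In the other 4 pigs, 223-15, 224-15, 226-15 and 231-15, PDK4 came ahead of ACADM, and in the first 2 of them also of CPT1A.

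The genes around the fuel switch were read from 8 lists of 96 genes, of which 63 were found and 58 were tested. In limma over all entries, 0 of 58 passed an adjusted p of 0.2 in each of the 3 group comparisons, and the counts with an unadjusted p under 0.05 were 1, 2 and 3 for Si-NEC against No NEC, Co-NEC against No NEC and Si-NEC against Co-NEC, or 1.72%, 3.45% and 5.17%, near the 2.61%, 3.44% and 5.64% of all entries. Of the pyruvate dehydrogenase list, 10 of 14 genes were tested. A positive log2 difference between Si-NEC and No NEC was seen for 4 of 10, beside 53.8% of all entries, and the median was -0.02. PDHA1, a catalytic subunit of the complex that PDK4 inhibits, had means of 71.5 ± 10.9, 74.4 ± 5.85 and 69.5 ± 4.25 FPKM in No NEC, Co-NEC and Si-NEC (SD, n = 5, 5 and 6). LDHA, which turns pyruvate to lactate, was the most abundant gene of the list, with 183 ± 53.5, 179 ± 25.0 and 170 ± 41.8 FPKM. PDP1, the phosphatase that undoes the kinases' work, had 15.1 ± 3.02, 16.97 ± 1.34 and 15.7 ± 2.30 FPKM in the same order. PDK1, the kinase best known from hypoxia, had 7.74 ± 2.21 FPKM without NEC, 10.5 ± 1.57 in Co-NEC and 9.29 ± 1.74 in Si-NEC, with a log2 difference of 0.44 (SE 0.19, limma unadjusted p = 0.0376) between Co-NEC and No NEC. So the kinases had different orders of the groups in their means, with PDK4 highest in Si-NEC, PDK1 highest in Co-NEC and PDK2 lowest in Co-NEC, and none of these passed the adjusted threshold.

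Of the fatty acid oxidation list, 15 of 20 genes were tested. A positive log2 difference between Si-NEC and No NEC was seen for 9 of 15, beside 53.8% of all entries, and the median was 0.02. CPT1C, the CPT1 isoform found mainly in neurons, had 38.6 ± 2.2 FPKM in No NEC, 36.1 ± 2.99 in Co-NEC and 39.4 ± 2.61 in Si-NEC. These RNA levels were close to those of CPT1A. CPT2, the partner of CPT1A at the inner membrane, had 3.66 ± 0.301, 3.81 ± 0.407 and 3.36 ± 0.565 FPKM. ACADL and ACADS, which take the longer and shorter chains beside ACADM, had log2 differences between Si-NEC and No NEC of -0.02 (SE 0.20) and -0.22 (SE 0.19), against 0.19 for ACADM. The most abundant genes of the list beside CPT1C were HADHA and ETFA, with 38.6 ± 11.96 and 32.2 ± 9.06 FPKM in Si-NEC (SD, n = 6). The ketone body list had 3 of 5 tested genes with a positive log2 difference between Si-NEC and No NEC, with a median of 0.09, the list of PPAR partners and targets 5 of 7, with a median of 0.10, and the uncoupling carriers 2 of 2, with a median of 0.03. OXCT1, the enzyme that lets a tissue burn ketone bodies, had 6.42 ± 1.34, 7.504 ± 0.741 and 6.78 ± 0.906 FPKM in No NEC, Co-NEC and Si-NEC. PPARD, the PPAR most common in brain, had 12.3 ± 2.09 FPKM in No NEC and 13.3 ± 1.86 in Si-NEC, above the level of PPARA, while PPARGC1A was listed at 0 in every pig. An exact 0 in this table may be a failed estimate: COX1, a mitochondrial gene that all cells use, was listed at 0 in all No NEC and Si-NEC pigs while its Co-NEC values were 9929 to 15986 FPKM, and it was the 1 entry past the threshold for Co-NEC against No NEC.

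Of the arrestin domain and glucose sensing list, 6 of 8 tested genes had a positive log2 difference for Si-NEC from No NEC, with a median of 0.13. ARRDC4, the closest relative of TXNIP in glucose response, was 3.31, 3.76, 4.20, 5.92 and 6.94 FPKM in the No NEC pigs and 4.88 to 8.74 FPKM in the Si-NEC pigs, with a median of 7.07. Its log2 difference was 0.50 (SE 0.20, limma unadjusted p = 0.0306, adjusted p = 1.0), and pigs 223-15, 246-15 and 224-15 were highest. ARRDC2 had a difference of 0.25 (SE 0.24) in the same comparison, with its highest value, 9.92 FPKM, also in pig 223-15. MLXIPL, the glucose-sensing transcription factor ChREBP, was 1.78 to 2.53 FPKM in Co-NEC and 2.39 to 3.15 FPKM in No NEC, a log2 difference of -0.33 (SE 0.13) that did not pass the adjusted threshold. Of the FOXO and insulin list, all 6 tested genes had a positive log2 difference for Si-NEC from No NEC, with a median of 0.18, and 5 of 6 for Co-NEC, with a median of 0.12. The most abundant of these, PIK3IP1, CCNG2 and BCL6, had differences between Si-NEC and No NEC of 0.06, 0.22 and 0.06. Of the glucocorticoid list, all 6 had a log2 difference above 0 for Si-NEC, with a median of 0.20, and 2 of 6 for Co-NEC, with a median of -0.07. Of these, SGK1 for Si-NEC and FKBP5 for Co-NEC differed by 0.00 on the log2 scale and had a lower mean FPKM than in No NEC. In the FOXO and glucocorticoid lists alike, all 6 genes were also above 0 for females against males and for endings 15 against 14. Of all entries, 53.8% were above 0 for Si-NEC and 52% for Co-NEC, each against No NEC, 49.2% by sex and 53.9% by ending. Within the glucocorticoid list PER1, a clock gene that glucocorticoids induce, was 23.7 to 33.5 FPKM in No NEC, 21.0 to 31.9 in Co-NEC and 23.3 to 38.1 in Si-NEC. FKBP5 had 16.4 ± 8.74, 15.0 ± 2.89 and 20.7 ± 8.96 FPKM in that order, so its SD within No NEC and within Si-NEC, but not within Co-NEC, was larger than each difference between the means.

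**Figure D5:**
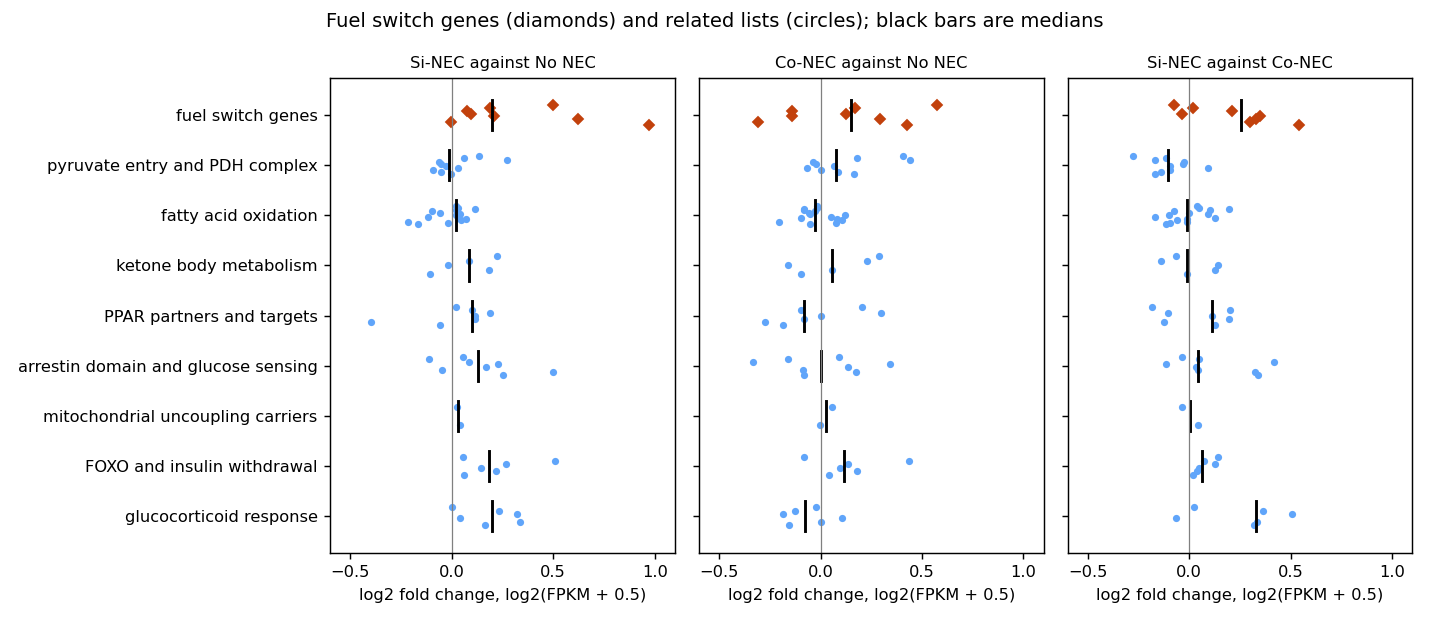
Log2 fold change (horizontal axis) of the fuel switch genes (diamonds) and of the tested genes in 8 related lists (circles, 1 row a list), in 3 comparisons of groups, with black bars at the medians. The list medians lie between -0.02 and 0.20 for Si-NEC against No NEC, and no circle passes PDK4 at 0.97.

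Markers of cell types were set beside the genes that were high in Si-NEC pigs. The median log2 difference for Si-NEC against No NEC was 2.24 for neutrophil markers, where 1 gene was tested. It was 0.28 for endothelial, 0.17 for hippocampal neuron, 0.07 for astrocyte and 0.05 for oligodendrocyte markers. Below 0 were mural and meningeal (-0.06), neuron (-0.12), microglia (-0.18), choroid plexus (-0.21) and erythroid markers (-0.73). At most 4 genes of a list were tested. The neutrophil list, of which 3 of 5 genes were found and 1 was listed at 0 in every pig, summed to 1.07 to 3.33 FPKM in No NEC, 0.906 to 2.44 in Co-NEC and 2.39 to 25.0 in Si-NEC. S100A8, the main gene in that sum, was 14.8 FPKM in pig 223-15 and 21.2 in pig 224-15, the pigs highest for PDK4, but it was highest in pig 246-15, at 25.0 FPKM, where PDK4 was 15.3. MPO, the remaining gene found, went the other way, with means of 0.378 FPKM in No NEC, 0.137 in Co-NEC and 0.169 in Si-NEC. It lay under the minimum mean for testing. The endothelial list, with 2 of 6 genes found and none at 0 throughout, summed to 8.02 to 21.9 FPKM in No NEC, 13.3 to 19.6 in Co-NEC and 14.8 to 28.3 in Si-NEC. The astrocyte list, with 4 of 6 found and 1 of them at 0 in every pig, summed to 944 to 1140, 983 to 1095 and 892 to 1528 FPKM. GJA1, the astrocyte gap junction gene, was among those most like PDK4 only with group means removed. It was 268 FPKM in pig 223-15 and 195 in pig 224-15, and 114 in pig 547-14. The log2 difference for Si-NEC against No NEC was 0.20 (SE 0.21) for GJA1. For the astrocyte markers GFAP and SLC1A3 it was 0.07 (SE 0.18) and -0.01 (SE 0.13). The part of any of these cells in the PDK4 and ARRDC3 levels was not tested.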

How the data were processed

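Total RNA from 16 left hippocampi was sequenced. The authors trimmed the reads, aligned them to Sscrofa10.2 with TopHat2 2.1.1 and estimated FPKM with Cufflinks 2.2.1, and the FPKM table they deposited was used as given, with no scaling between pigs stated. Of 24594 entries, 1779 identical to another were dropped, and 13590 with a mean of at least 0.5 FPKM were tested. Pairs of groups, taken from the labels, were fitted alone on log2(FPKM + 0.5), which understates changes of low genes, with limma 3.58.1 in R 4.3.3 (trend, Benjamini-Hochberg adjustment, threshold 0.2). Correlations used 100000 permutations within groups in Python 3.11.15 (scipy 1.17.1). Fitting was first tested on simulated data. Members and lists were chosen with earlier results of these data known. Named were all members, related genes past the threshold, isoforms and partners by role, the 3 most abundant genes of each list and the 5 most like PDK4 and ARRDC3, in part by example. S100A8, MPO, COX1, FKBP5 and MLXIPL were named after their values were seen. As no litters are given, p-values measure the spread between these pigs. Alternatives were other pseudocounts, filters, rescaling, covariates, array weights and leaving out pigs.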

Additional observations from a re-analysis of the deposited data

Results flagged for a closer look

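In the Co-NEC group, PDK2 in pig 255-15 was 170.6 FPKM, far above the 87.7 to 111 FPKM of the other 4 pigs. In the same group, UCP2 in pig 225-15 was 4.74 FPKM, below the 7.29 to 7.63 FPKM of the other 4. Each was picked because the gap to the nearest pig took up most of the range of its group. In all, 24 groups of values were looked at, 8 genes in 3 groups, and chance alone picks about 1 in 20.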

How the results depend on the processing

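No alternative brought a fuel switch gene past the threshold in the 3 group comparisons or by sex, with 0 of 8 throughout, also when any pig was left out. The count over all genes was less steady. For Si-NEC against No NEC it was 1, and became 4 with array weights, 2 with the number ending as a covariate and 1 to 3 with a pig left out (3 without 540-14). For Co-NEC against No NEC it was 1, and became 4 with no filter on low values and 1 to 2 with a pig left out (2 without 225-15 or 540-14). For Si-NEC against Co-NEC it was 2, and became 201 with array weights, 1 at an adjusted p under 0.05, with a pseudocount of 0.1, with no filter, without pigs 223-15 and 230-15, with all groups in one fit, and with sex or the number ending as a covariate, and 1 to 12 with a pig left out (12 without 547-14, 5 without 255-15). By sex it was 7, and 5 to 8 with a pig left out. Correlated pairs of fuel switch genes numbered 0, and 1 without group means removed, 1 without pigs 223-15 and 230-15 (ARRDC3 and PPARA, r = 0.860, permutation p = 0.00122, adjusted p = 0.0342) and 0 to 1 with a pig left out (1 without 228-15, PDK4 and ARRDC3). The cause of these changes was not tested. The signs of the PDK2, ANGPTL4 and CPT1A differences for Si-NEC against No NEC changed under 2, 1 and 1 of 11 alternatives, and those of PDK4, ARRDC3, UCP2, ACADM and PPARA under none of the 11. With a pig left out, the sign of the same difference changed in 4 fits for PDK2, 2 for UCP2 and 1 for CPT1A. It changed in none for the remaining genes. No analysis by litter was possible because the labels give no litter. The paper's pigs came from 8 sows, so some of the pigs used here may be littermates. Without read counts, what depth limits could not be worked out.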
